A study of Mus musculus with 12 samples.

Results

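The genes described here are the mouse mitochondrial solute carriers of the SLC25 family. They were chosen by name: all protein-coding genes whose symbol starts with Slc25a, without Slc25a20, the carnitine-acylcarnitine carrier. The rule found 45 of the 28997 genes in the authors' deposited tables. It used no measured value.

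RNA sequencing was done on soleus, a small calf muscle rich in slow, mitochondria-laden fibres, from 12 mice in 4 groups of 3. The labels name these groups as Cdh5Cre-NOX1CKO on high fat diet, Cdh5Cre-NOX1CKO on chow diet, Cdh5cre-WT on high fat diet and Cdh5cre-WT on chow diet, each fed for 8 weeks. Every group, the wild-type ones included, carries a Cre recombinase driven by the endothelial gene Cdh5, so the knockout of NOX1, an NADPH oxidase that makes superoxide, is directed at endothelial cells and not at the muscle fibres themselves. No source used here gives the age of the mice. Whole muscle was used, so fewer cells of a type and less RNA per cell cannot be told apart.

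The deposited values are the authors' own comparisons between groups coded G4, G3, G2 and G1. Neither labels nor tables say which code stands for which genotype and diet. The groups are therefore called by their codes throughout, and no difference is assigned to diet or knockout. G4 was compared with G3 and with G2, and G3 and G2 were each compared with G1. Nox1 cannot check the labels, since its total over the 12 libraries was only 25.2 normalised reads in the authors' deposited tables.

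SLC25 carriers are small proteins of the inner mitochondrial membrane that move nucleotides, phosphate, metabolites, amino acids and cofactors between cytosol and matrix. A few have moved to other membranes, such as Slc25a17 in peroxisomes and Slc25a46 in the outer mitochondrial membrane. In muscle the family is best known for ADP-ATP exchange and phosphate import, which feed the ATP synthase, and for the malate-aspartate shuttle, which brings reducing equivalents from glycolysis into the matrix. Some members still have no settled substrate, and for others the substrate is known mainly from transport in vesicles or yeast.

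Slc25a34 and Slc25a39 carried the only calls, both higher in G4 against G2. With Slc25a22, which had the next-smallest p there, they are shown by their promoters, the 250 bases before the RefSeq start in the GRCm38.p6 build, read along the gene from 5′ to 3′. Capitals mark the letters AGGTCA, a usual site of nuclear receptors, or GGGCGG, the GC box, on either strand. The windows lie at chr4:141623835-141624084, chr11:102407518-102407767 and chr7:141437875-141438124, all on the minus strand.
Slc25a34: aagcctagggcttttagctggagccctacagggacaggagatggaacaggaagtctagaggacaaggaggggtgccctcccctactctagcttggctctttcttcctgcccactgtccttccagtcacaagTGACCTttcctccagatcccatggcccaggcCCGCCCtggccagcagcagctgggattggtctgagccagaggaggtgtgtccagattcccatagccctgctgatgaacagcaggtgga
Slc25a39: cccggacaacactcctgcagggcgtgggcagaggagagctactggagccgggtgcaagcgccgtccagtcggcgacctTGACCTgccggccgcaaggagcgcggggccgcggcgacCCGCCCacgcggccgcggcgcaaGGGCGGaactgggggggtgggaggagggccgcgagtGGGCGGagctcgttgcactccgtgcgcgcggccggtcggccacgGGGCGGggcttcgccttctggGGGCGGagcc
Slc25a22: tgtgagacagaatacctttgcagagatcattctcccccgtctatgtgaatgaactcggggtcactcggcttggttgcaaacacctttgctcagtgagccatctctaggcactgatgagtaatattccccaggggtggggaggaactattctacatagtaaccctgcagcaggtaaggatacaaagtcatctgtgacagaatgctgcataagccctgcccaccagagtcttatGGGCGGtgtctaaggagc

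The promoter of Slc25a34 holds 1 AGGTCA hexamer, 119 to 114 bases before the start, and 1 GC box. That of Slc25a39 holds 1 AGGTCA hexamer, 172 to 167 bases before the start, and 5 GC boxes. The GENCODE start of Slc25a39 lies 429 bases upstream of the RefSeq start used here. The window of Slc25a22, 1 of the 3 that RefSeq gives this gene, holds 1 GC box and no AGGTCA. Of the 3 windows shown, that of the glutathione carrier has the most GC boxes.

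Across the family, RefSeq gave a window for 34 of the 45 members, 44 windows in all. AGGTCA was in 14.0% of all 32851 promoters of that length and in a window of 4 of the 34 members, which were Slc25a34, Slc25a39, Slc25a45 and Slc25a47. GGGCGG was in 32.7% of all promoters and in a window of 24 members. CCAAT was in 33.9% of all promoters and 18 members, TATAA in 22.8% and 3 members, and the palindromic site of the respiratory factor NRF1 in 3.74% and 2 members. Both strands were searched and no 2 marked matches overlap. The counts for members are over genes, some with several windows, and those for all promoters are over windows. A match is a description of letters in these windows.

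Of the 45 members, 38 had a total of at least 100 normalised reads over the 12 libraries, the level from which values are described here. The other 7 lay under it, with totals of 26.7 for Slc25a18, 19.2 for Slc25a2, 7.97 for Slc25a43, 5.18 for Slc25a31, 3.56 for Slc25a21, 3.15 for Slc25a41 and 2.74 for Slc25a48 in the authors' deposited tables. These 7 include ANT4, the ADP-ATP exchanger of testis, and one of the glutamate carriers. No fold change is given for them.

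Levels per length, in TPM, were led by Slc25a4 at 2847 and Slc25a3 at 1001. TPM is normalised reads scaled for transcript length, then for their sum over all genes with a length. Slc25a4 is ANT1, the ADP-ATP exchanger of heart and skeletal muscle, and Slc25a3 imports phosphate and copper. Slc25a4 alone took 60.8% of the members' summed level per length and Slc25a3 another 21.4%. Slc25a11, the oxoglutarate-malate exchanger, followed at 269, and Slc25a12, the aspartate-glutamate exchanger of muscle and brain called aralar, at 118. The remaining members lay at or below 47.4, the level of Slc25a5, down to 0.641 for Slc25a53 among the 38. The 4 most abundant of the 45 members are thus those of ADP-ATP exchange, of phosphate import and of the malate-aspartate shuttle. Slc25a20, left out by the rule, was at 136 on the same scale, above Slc25a12.

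**Figure D1:**
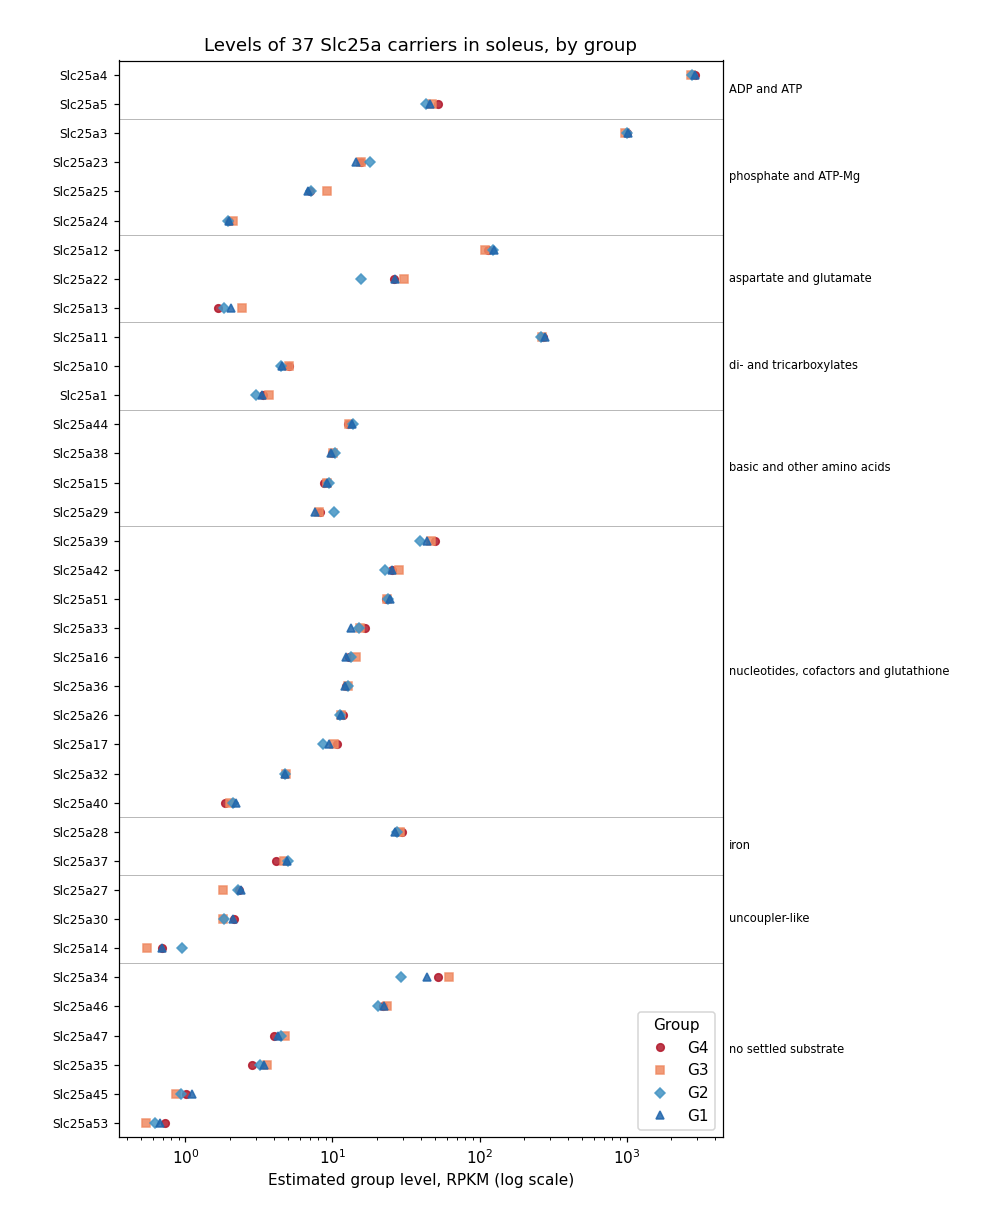
Estimated level of 37 of the 38 carriers with a total of at least 100, by substrate, on a log scale. The unit is TPM, though the axis is labelled RPKM. There is 1 point for each of G4, G3, G2 and G1 and no error per library. Slc25a4 and Slc25a3 stand at the far right, and the points of most carriers overlap across groups, with Slc25a34 and Slc25a22 lowest in G2.

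Tissue-typical forms led their near relatives in all 4 groups. Slc25a4 was 60.0 times as abundant per length as Slc25a5, ANT2, with estimated ratios of 55.8 in G4, 57.3 in G3, 64.7 in G2 and 63.3 in G1. Slc25a12 was likewise 59.5 times as abundant per length as Slc25a13, citrin, the form of liver, at 68.9 in G4, 45.2 in G3, 67.6 in G2 and 61.7 in G1. Between the 2 mitochondrial iron importers, mitoferrin 2 (Slc25a28) exceeded the erythroid mitoferrin 1 (Slc25a37) by 6.03 times per length. Of the 2 glutathione carriers, Slc25a39 exceeded Slc25a40 by 22.0 times per length. These ratios carry no error, since the tables hold no value per library.

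The authors' adjusted p was under 0.05 for 2 members, Slc25a34 and Slc25a39, both higher in G4 against G2. The background there was 1.02% of 14539 genes called higher and 0.351% called lower. No member was called lower in G4 against G2 and none in either direction in the other 3 comparisons by the authors' deposited adjusted p. The background in those was 0.0394% of genes called in G4 against G3, all lower, and 0.00345% in G2 against G1, also lower. In G3 against G1 it was 0.169% called higher and 0.0414% lower, 0.21% in either direction, so few genes of any kind were called. At an unadjusted p under 0.05, the authors' deposited tables hold 2 of the 38 members for G4 against G3, 3 for G4 against G2, 3 for G3 against G1 and, with rebuilt values, 4 for G2 against G1. The same threshold took 4.83%, 9.06%, 5.63% and 2.35% of all 15494 genes at this level, against 5.26%, 7.89%, 7.89% and 10.5% of the members.

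For most carriers the differences were small. The log2 value lay within 0.25 of 0 for 31 of 38 members when G4 was set against G3, 30 for G4 against G2, 32 for G3 against G1 and 33 for G2 against G1. The members' median log2 was -0.0031, 0.018, 0.058 and -0.031 in that order of comparisons, beside 0.0036, 0.00034, 0.00032 and -0.00099 for all genes. The median size of the log2 value, sign set aside, was 0.10, 0.14, 0.11 and 0.081 for members, beside 0.12, 0.13, 0.11 and 0.093 for all genes. The members' medians lay close to those of all genes in each comparison. Standard errors here and below are those the authors' p-values imply under a normal approximation, and their median over members was 0.17 log2 in each comparison.

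**Figure D2:**
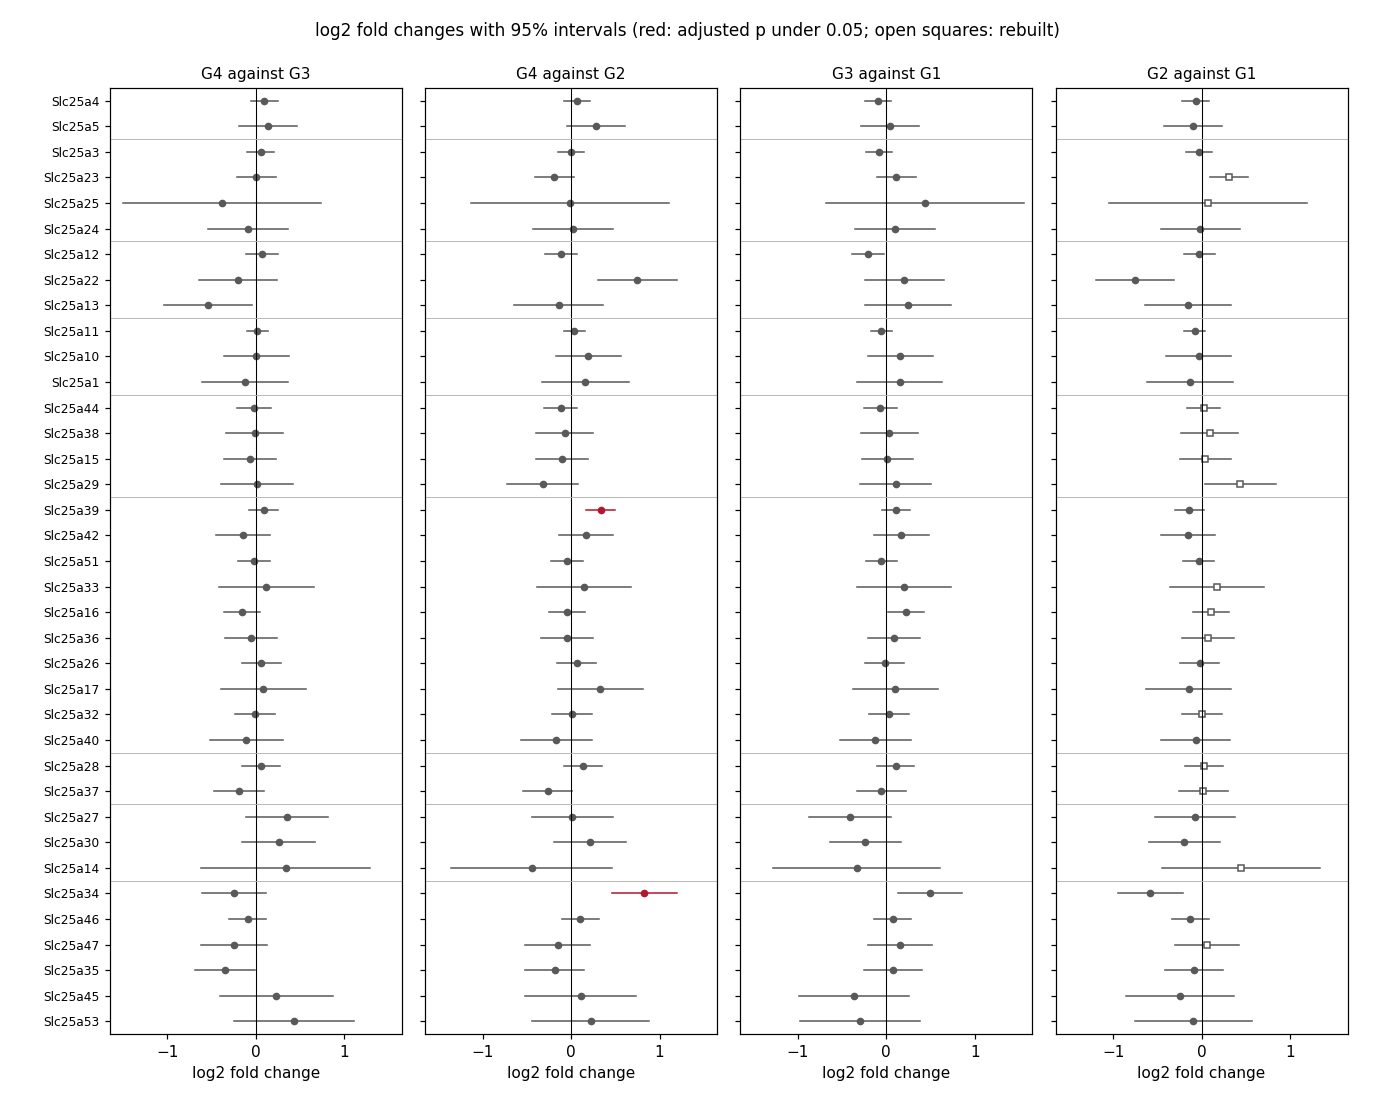
log2 fold change of 37 of the 38 carriers in the 4 comparisons, ordered by substrate, with bars for the 95% interval implied by the authors' p and open squares for values rebuilt from the other tables. The 2 red points, Slc25a39 and Slc25a34 in G4 against G2, are those with an adjusted p under 0.05, and most other intervals cross 0.

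Slc25a34 is a carrier with no settled substrate and the sixth of the 45 members by level per length. Its estimated level was 1947 normalised reads per library in G4, 2309 in G3, 1097 in G2 and 1637 in G1. G2 was thus lowest and G3 highest. It was higher in G4 than in G2 by a log2 of 0.83 ± 0.19 (SE), 1.77-fold with a 95% interval of 1.38 to 2.28, and the authors' deposited table gives it an adjusted p of 0.00203. In the other tables the authors' adjusted p was 0.884 for G3 against G1 (log2 0.50 ± 0.19), 1.0 for G2 against G1 (-0.58 ± 0.19) and 0.9997 for G4 against G3 (-0.25 ± 0.19). The unadjusted p of the first 2 was 0.00745 and 0.00189 in the authors' deposited tables. The difference between its log2 in G4 against G2 and in G3 against G1 was 0.33 ± 0.26, with an adjusted p of 0.9997 from a z test over all genes that builds on the authors' deposited values.

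The gene lies at chr4:141618824-141623821 on the minus strand in GRCm38. Tmem82, a membrane protein gene, lies 190 bases downstream on the same strand, so reads past an end could fall to either. Tmem82 had a total of 297, and its log2 in the authors' deposited tables was 0.46 for G4 against G2, 0.17 for G3 against G1 and -0.83 for G2 against G1, with no call. Its relative Slc25a35, also without a settled substrate, had a log2 of -0.19 ± 0.17 for G4 against G2 in the authors' deposited table. The estimated per-length ratio of Slc25a34 to Slc25a35 was 18.3 in G4, 17.1 in G3, 9.06 in G2 and 12.8 in G1.

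Slc25a39, which carries glutathione into mitochondria, was estimated at 1183 normalised reads per library in G4, 1112 in G3, 937 in G2 and 1031 in G1. Again G2 was lowest, and here G4 was highest. The log2 in G4 against G2 was 0.34 ± 0.083 (SE), 1.26-fold with a 95% interval of 1.13 to 1.41, and the authors' deposited table gives this an adjusted p of 0.00919. This call ended when a trend of the z values on GC content, length and total was removed, when the log2 was 0.29 and the adjusted p 0.0513. For the other comparisons the authors' deposited log2 was 0.089 for G4 against G3, 0.11 for G3 against G1 and -0.14 for G2 against G1, each with an SE of 0.083. The gene lies at chr11:102402985-102407946 on the minus strand.

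Slc25a22, a glutamate carrier, had estimated levels of 1041 in G4, 1201 in G3, 619 in G2 and 1042 normalised reads per library in G1. G2 stood apart and the other 3 groups lay close. The authors' deposited log2 was 0.75 ± 0.23 in G4 against G2, with an unadjusted p of 9.35e-04 and an adjusted p of 0.0610, so it missed the threshold. In G2 against G1 the authors' deposited log2 was -0.75 ± 0.23, with an adjusted p of 1.0. Its values of 0.20 ± 0.23 in G3 against G1 and -0.21 ± 0.23 in G4 against G3, also in the authors' deposited tables, were under their errors. The gene lies at chr7:141429744-141437892, with Cend1 252 and Pidd1 220 bases from its ends on the same strand.

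**Figure D3:**
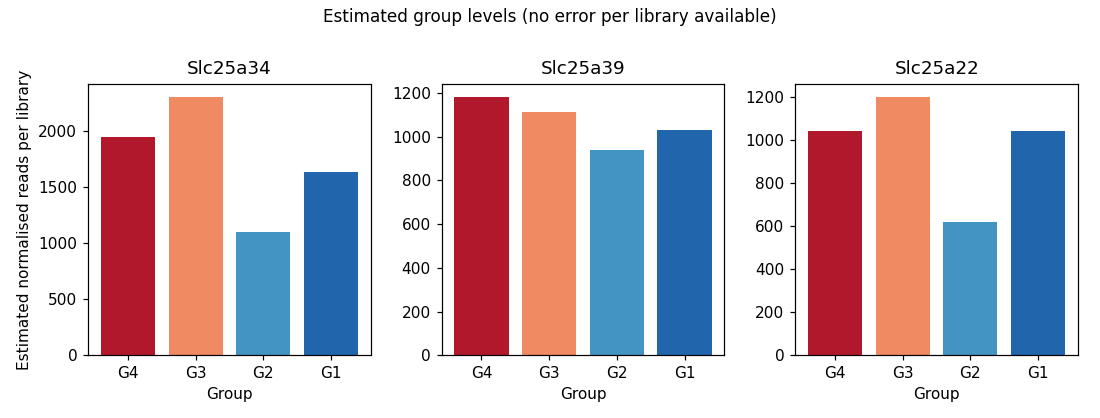
Estimated mean normalised reads per library of Slc25a34, Slc25a39 and Slc25a22 in G4, G3, G2 and G1, from deposited totals and fold changes, with no error per library. G2 is the lowest bar for all 3 genes, at 1097, 937 and 619.

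Marker lists of other cell types and of fibre types also differed in sum between G4 and G2. The summed level of 9 adipocyte markers was 7239 in G4, 6230 in G3, 5502 in G2 and 7122 in G1, with Ucp1, the defining gene of brown fat, without a row. In G4 against G2, 7 of the 9 had a positive log2 and 2, Fabp4 and Lipe, were called higher in the authors' deposited table. All 10 endothelial markers had a positive log2 there, with Eng called higher, and their sums were 18506, 17195, 15504 and 16504 in G4, G3, G2 and G1. The 5 erythroid markers summed to 3687, 4234, 2788 and 4463 in that order, with 5 of 5 positive and none called. By contrast all 8 slow fibre markers had a negative log2 in G4 against G2, with sums of 645320, 597240, 762060 and 596317 in G4, G3, G2 and G1. All 12 fast fibre markers were negative there too, with sums of 1153488, 1105506, 1260098 and 1344762. The part of these lists in the values of Slc25a34, Slc25a39 and Slc25a22 was not tested.

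Other lists differed less between G4 and G2. Macrophage markers summed to 1776 in G4, 2173 in G3, 1793 in G2 and 2286 in G1. In the same order, fibroblast markers summed to 15856, 19029, 15680.3 and 16567, and Schwann cell markers to 2107, 2217, 2020.3 and 2432. In G2 against G1, 0 of 10 macrophage, 0 of 6 Schwann cell and 2 of 6 fibroblast markers had a positive log2, with none called. The 8 general skeletal muscle markers were all present, at sums of 1342512 in G4, 1360133 in G3, 1434443 in G2 and 1362636 in G1, as the tissue label has it.

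The ADP-ATP exchangers differed little. Slc25a4 was estimated at 78995 normalised reads per library in G4, 73967 in G3, 75492 in G2 and 79100.3 in G1. Its log2 values in the authors' deposited tables ran from -0.097 in G3 against G1 to 0.095 in G4 against G3, each with an SE of 0.076. The 95% intervals over the 4 comparisons reached from 0.843-fold to 1.18-fold, so larger differences lay outside them. Slc25a5 was at 912 in G4, 831 in G3, 752 in G2 and 805 in G1. Its highest log2 in the authors' deposited tables was 0.28 ± 0.17 in G4 against G2, which was not called. A processed copy, Slc25a5-ps, had a total of 22.8 reads, and reads could be split between the pair.

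Slc25a3, the phosphate importer, was about as even. Its estimated levels were 22728 in G4, 21909 in G3, 22748 in G2 and 23213 normalised reads per library in G1. In the authors' deposited tables its log2 was 0.053 for G4 against G3, -0.0013 for G4 against G2, -0.083 for G3 against G1 and -0.029 for G2 against G1, each with an SE of 0.076. Intervals of 95% ran from 0.852-fold to 1.15-fold over the 4.

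The ATP-Mg carriers, which swap ATP-Mg for phosphate under the control of calcium, were much rarer. Slc25a23 was at 739 in G4, 738 in G3, 843 in G2 and 681 in G1, so G2 was highest and G1 lowest. Its rebuilt log2 in G2 against G1 was 0.31 ± 0.11, with an unadjusted p of 0.00561 and an adjusted p of 1.0 over all genes. Slc25a25 had the widest errors of the 38 carriers, with an SE of 0.57 in each comparison. It was at 350 in G4, 457 in G3, 354 in G2 and 337 in G1, and its authors' deposited log2 in G3 against G1 was 0.44, under that error. Slc25a24 lay between 93.8 and 101 reads in all groups.

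Within the malate-aspartate shuttle, Slc25a12 was at 10156 normalised reads per library in G4, 9702 in G3, 10995 in G2 and 11176 in G1. Its authors' deposited log2 in G3 against G1 was -0.20 ± 0.092, with an unadjusted p of 0.0270 and an adjusted p of 1.0. Slc25a13 had the lowest log2 of the 38 carriers in G4 against G3, at -0.54 ± 0.25 in the authors' deposited table, with an unadjusted p of 0.0321 and an adjusted p of 0.9997. Its levels were 72.5 in G4, 105 in G3, 79.9 in G2 and 88.9 in G1. Slc25a11, the partner exchanger, was at 6473 in G4, 6408 in G3, 6315 in G2 and 6661 in G1. Its log2 values in the authors' deposited tables lay between -0.077 and 0.035, with an SE of 0.061. It overlaps Rnf167 on the opposite strand, a gene with a total of 10006 reads. The libraries were made with a stranded kit, but no source used here says whether counting used the strand.

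Among the other carriers of carboxylates, Slc25a10, which swaps malate or succinate for phosphate, was at 144 in G4, 143 in G3, 126 in G2 and 129 in G1. The citrate carrier Slc25a1 was at 78.7 in G4, 86.0 in G3, 70.5 in G2 and 77.4 in G1. Their log2 values in G4 against G2 were 0.19 ± 0.19 and 0.16 ± 0.25 in the authors' deposited table. None of the 3 carriers of di- or tricarboxylates above the minimum had an unadjusted p under 0.05 in any of the 4 comparisons.

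The 4 carriers of basic and other amino acids above the minimum had no call. In G4 against G2 all 4 had a negative log2, from -0.32 to -0.072, in the authors' deposited table, and in G2 against G1 all 4 had a positive one, rebuilt. These comparisons share G2, so the signs are not independent. Slc25a29, a carrier of basic amino acids, was at 227 in G4, 225 in G3, 284 in G2 and 209 in G1. Its rebuilt log2 in G2 against G1 was 0.44 ± 0.20, with an unadjusted p of 0.0307 and an adjusted p of 1.0 over all genes. Slc25a44, which carries branched-chain amino acids, was at 637 in G4, 647 in G3, 691 in G2 and 679 in G1. Slc25a15, the ornithine carrier, lay between 423 and 454, and Slc25a38, the glycine carrier needed for heme synthesis, between 247 and 263.

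The 11 carriers of nucleotides, cofactors and glutathione were all above the minimum, and Slc25a39 was the 1 among them with a call. Slc25a51, which brings NAD into mitochondria, was at 1447 in G4, 1466 in G3, 1492 in G2 and 1526 in G1, with log2 values between -0.058 and -0.019 in the authors' deposited tables. The coenzyme A carrier Slc25a42 was at 1146 in G4, 1272 in G3, 1019 in G2 and 1130.0 in G1. Its log2 was 0.17 ± 0.16 in both G4 against G2 and G3 against G1 in the authors' deposited tables. Slc25a16, a carrier linked to coenzyme A, was at 570 in G4, 636 in G3, 588 in G2 and 546 in G1. In G3 against G1 its log2 was 0.22 ± 0.10 in the authors' deposited table, with an unadjusted p of 0.0343 and an adjusted p of 1.0.

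The pyrimidine nucleotide carriers Slc25a36 and Slc25a33 had estimated levels of 903 and 441 in G4, 940 and 406 in G3, 930 and 399 in G2, and 888 and 354 in G1. The S-adenosylmethionine carrier Slc25a26 was at 319, 306, 305 and 309 in the same order of groups. Slc25a32, a carrier of folate or FAD, was the most even of these, at 396, 399, 393 and 392. The peroxisomal Slc25a17 was at 261, 247, 208 and 230, with a log2 of 0.33 ± 0.25 for G4 against G2 in the authors' deposited table. Slc25a40, the rarer glutathione carrier, was at 73.1, 78.9, 82.0 and 86.0. Its level was lowest in G4, where that of Slc25a39 was highest, and neither order was tested as such.

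Neither iron importer was called in any comparison. Slc25a28 was at 644 in G4, 618 in G3, 587 in G2 and 575 in G1, and Slc25a37 at 242, 275, 291 and 286. Their log2 values in G4 against G2 were 0.13 ± 0.11 and -0.27 ± 0.14 in the authors' deposited table, neither called.

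The uncoupler-like carriers Slc25a14, Slc25a27 and Slc25a30, relatives of the uncoupling proteins, were rare, with a summed level of 219 in G4, 177 in G3, 209 in G2 and 221 in G1. All 3 had a positive log2 in G4 against G3, from 0.26 to 0.35, and a negative one in G3 against G1, from -0.41 to -0.24, in the authors' deposited tables. Those comparisons share G3, and no value had an unadjusted p under 0.05. Slc25a14 was at 17.6 in G4, 14.0 in G3, 24.1 in G2 and 17.6 in G1, with an SE of 0.46 in G4 against G2.

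Of the members without a settled substrate, Slc25a46, a protein of the outer membrane that shapes mitochondria, was at 1353 in G4, 1441 in G3, 1258 in G2 and 1373 in G1. Slc25a35 was at 145, 185, 165 and 175 in the same order, with a log2 of -0.35 ± 0.17 in G4 against G3 in the authors' deposited table, an unadjusted p of 0.0422 and an adjusted p of 0.9997. Slc25a47, a form of liver, lay between 106 and 126. Slc25a45 and Slc25a53, both under 41 reads per library, had the widest spread of log2 here after Slc25a34. Slc25a53 had the highest log2 of the 38 carriers in G4 against G3, 0.43 ± 0.35 in the authors' deposited table.

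By substrate, the ratio of the highest to the lowest summed level over the groups was largest in the class that holds Slc25a34. That class, without a settled substrate, summed to 3621 in G4, 4117 in G3, 2701 in G2 and 3371 in G1. ADP-ATP exchangers summed to 79907, 74799, 76245 and 79906 in the same order, phosphate and ATP-Mg carriers to 23913, 23206, 24038 and 24327, and aspartate and glutamate carriers to 11272, 11011, 11697 and 12308. The 45 members in all summed to 135394 in G4, 129831 in G3, 130882 in G2 and 136518 in G1.

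G4 against G2 and G3 against G1 share no group, so the members can be set side by side. Over the 38 members the log2 values of that pair had a Pearson r of 0.34 and a Spearman rho of 0.19, beside 0.17 and 0.16 over all 15494 genes. In sign, 13 members were positive in both, 7 negative in both and 18 opposite. Over all 15494 genes these counts were 4275, 4251 and 6968. Slc25a34 was the member farthest out in both, and Slc25a22 and Slc25a39 were positive in both. The points share the authors' normalisation, and a correlation across genes is a description, since genes are not independent replicates. The difference between the comparisons was called for none of the 38 members by a z test built on the authors' deposited values, at a background of 0.00645% of genes called in either direction. No member had an unadjusted p under 0.05 for it, beside 4.12% of all genes. The smallest were 0.0527 for Slc25a39 and 0.0535 for Slc25a23, with differences in log2 of 0.23 ± 0.12 and -0.30 ± 0.16.

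**Figure D4:**
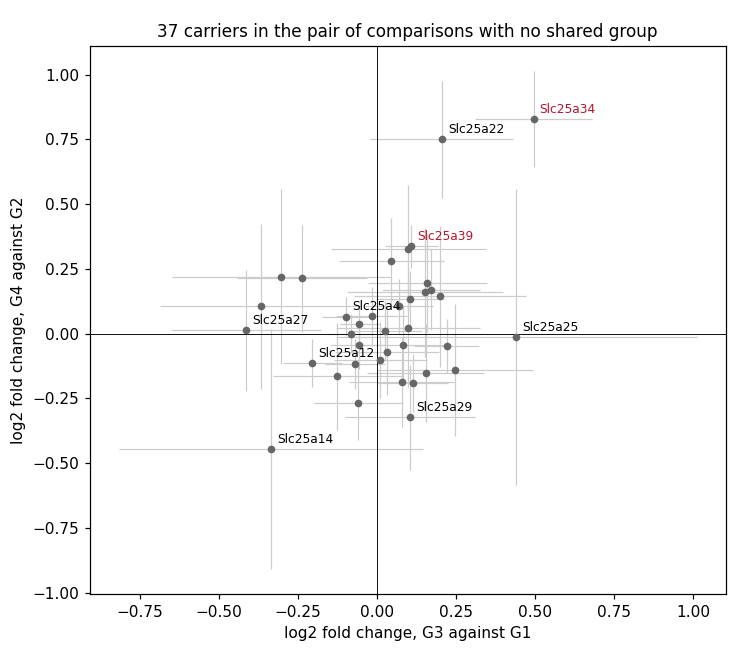
log2 fold change in G4 against G2 (vertical) over that in G3 against G1 (horizontal) for 37 of the 38 carriers, with bars of 1 implied SE. Slc25a34 lies at the upper right at 0.83 and 0.50, Slc25a22 at 0.75 and 0.20, and red names mark an adjusted p under 0.05 in G4 against G2.

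Other mitochondrial transport proteins give a frame for the carriers. The list held 28 genes, among them the uncoupling proteins, the pyruvate carrier, the porins, the calcium uniporter and the sideroflexins, and 27 had a row, all above the minimum. Ucp3 alone was called, and it belongs to the same protein family under another name. Ucp3, the uncoupling protein of skeletal muscle, was at 2419 in G4, 2295 in G3, 683 in G2 and 2442 in G1. In the authors' deposited tables its log2 was 1.82 ± 0.33 for G4 against G2 and -1.84 ± 0.33 for G2 against G1, with an adjusted p of 6.69e-04 in G2 against G1. Ucp3 thus had, like Slc25a34, Slc25a39 and Slc25a22, its lowest level in G2, at a larger fold. Ucp2 had a log2 of 0.67 ± 0.20 with an adjusted p of 0.0566, and Sfxn2, a sideroflexin, -0.89 ± 0.28 with 0.0849, both for G4 against G2 in the authors' deposited table. The porin Vdac1 and the pyruvate carrier genes Mpc1 and Mpc2 had log2 values between -0.10 and 0.12 in the 4 comparisons, deposited by the authors or, for Vdac1 in G2 against G1, rebuilt.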

How the data were processed

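RNA of soleus from 12 mice, 3 in each of 4 groups, was sequenced, and per the labels' protocols a stranded KAPA kit for mRNA was used. The submitters' processing notes name Bowtie2 2.1.0, RSEM 1.2.15, edgeR, mm10 and GRCm38 without giving their roles. The 4 files the authors deposited hold comparisons between groups. Each gives a total per gene, a signal of normalised reads summed by the authors over the 12 libraries. Each also holds the authors' p-value, their step-up adjusted p (other), a signed fold score and its log2 value. The totals sum to 298863066 reads, 24905255 a library on average, and depth per library is not known. There are no values per library, so no count model was run, p-values measure only the spread the authors estimated, and leaving out a library could not be done.

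The authors' p and adjusted p were used as the tests. The adjusted p was blank for 14458 genes in G4 against G2 and 11245 in G4 against G3. The implied standard error is the size of the log2 value over the normal quantile of p. The table for G2 against G1 lists 15652 genes, none with a positive log2, so the others were rebuilt by adding the log2 for G4 against G3 to that for G3 against G1 and taking away that for G4 against G2. On 7792 listed genes the rebuilt and deposited log2 differed by at most 1.02e-14, and log10 p by at most 2.85e-06. The difference of G4 against G2 and G3 against G1 was tested with z and Benjamini-Hochberg adjustment over the 15494 genes whose total reached 100, or 8.33 reads per library on average. Group levels were solved from the total and the folds, which is exact only where folds are ratios of group means. Lengths are of the longest protein-coding GENCODE M21 transcript, with 98.0% of those genes matched.

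Members and lists were chosen with earlier results of these data known. Values are given for members with an adjusted p under 0.05, the 2 most abundant of each substrate class, and the 3 highest and 3 lowest log2 values of each comparison, 25 in all, with the others by level. Among those others, log2 values are also given for Slc25a1, Slc25a16, Slc25a17 and Slc25a51, outside that rule. The substrate classes are from textbook knowledge. The values of 1 member are not reported here, though it is in the counts and medians. Calculations used Python 3.11.15 with numpy 2.4.6, pandas 2.3.3, scipy 1.17.1, patsy 1.0.2 and matplotlib 3.10.9, and were tested on simulated data. Alternatives were adjustment over all genes or over those with a total of at least 100, centring on the median of all genes, a fold of at least 1.5, a t distribution with 8 residual degrees of freedom, and removal of a spline trend on GC content, length and total.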

Additional observations from a re-analysis of the deposited data

How the results depend on the processing

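Of 26 recalculations of the number of members called, 24 left it within 1.5 times the reported number. Outside G4 against G2 the reported number was 0, for the difference too, so there only a new call could have changed it. In G4 against G2, where 2 members were called, 1 was left when a fold of at least 1.5 was also required and 1 when the trend on GC content, length and total was removed. Slc25a34 was called in both. Slc25a39 has a smaller fold than 1.5 by the authors' deposited table, and after removal of the trend its log2 was 0.29 with an adjusted p of 0.0513, where the cause was not tested. The trend took up 5.21% of the variance of z in that comparison. The members' median log2 moved by less than the median implied SE of a single member, 0.17, under 8 recalculations. That bound is wide beside medians this near 0, so it could hardly have been crossed. For named members, 199 recalculated log2 values stayed on their side of the threshold, with that of Slc25a39 the 1 exception. Most of these values were not called as reported, so for them only a new call could have counted. Sign was not part of that count. The log2 of Slc25a11 in G4 against G3, for example, went from 0.014 to -0.021 when the trend was removed. No paired analysis was possible because the labels give no shared replicate numbers and the tables hold no value per library. For the same reason leaving out each library in turn was not run, and the t distribution could be tried only where p was rebuilt, in G2 against G1 and in the difference. For 7 members a total under 100 was too low for a fold to be given.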
